A study of Mus musculus with 6 samples.

Results

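The 39 genes described here encode enzymes and carriers with which mitochondria burn pyruvate and fatty acids. They were taken from the count table by gene symbol, and all 39 were found among its 42365 rows. They fall into 14 genes of the tricarboxylic acid (TCA) cycle, 6 genes of pyruvate entry and 19 genes of fatty acid oxidation, spread over 17 chromosomes. The cells are NPC, a mouse neural progenitor line grown in culture whose descendants may become neuronal or glial, and their RNA was sequenced. The 6 libraries form 3 groups of 2: labelled knockout clone 1 and labelled knockout clone 2, both with the genotype KO, and parental cells with the genotype WT. Each labelled knockout group is 1 clone measured in 2 libraries, and the titles number the parental libraries as clones 1 and 2. The labels give no age, sex, passage, medium or treatment, and nothing in them says whether the libraries of a group came from separate cultures, so p-values measure only the spread between these samples, which may be technical. The gene that the design gives as knocked out, not named here, was not lower in the labelled knockout libraries. It had 453 and 456 counts in clone 1, 347 and 351 in clone 2, and 301 and 335 in parental cells (log2 difference 0.27 ± 0.19, edgeR adjusted p = 0.351), and clone 1 alone was called higher than parental cells (0.39 ± 0.12, edgeR adjusted p = 0.0107). The labels do not say how the gene was altered, so its count need not fall, and the clones are called labelled knockout throughout.

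Pyruvate made from glucose enters the mitochondrion through a carrier and is either oxidised to acetyl-CoA by pyruvate dehydrogenase or carboxylated to oxaloacetate. Fatty acids enter as carnitine esters and are shortened to acetyl-CoA by beta-oxidation, a cycle of dehydrogenation, hydration, dehydrogenation and thiolysis. The TCA cycle oxidises acetyl-CoA and supplies precursors for lipids, amino acids and nucleotides. Fatty acid oxidation is known to be active in adult neural stem cells and in astrocytes, while most neurons rely on glucose and lactate.

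The promoter windows of 4 members that the results turn on are printed here. Fh1 and Pdhb were higher in the labelled knockout clones, Cpt1c was lower, and Hadha starts 273 bases from Hadhb, by RefSeq's starts, on the opposite strand. Hadhb encodes the partner subunit of its enzyme. Sequences are RefSeq's on build GRCm38.p6, 250 bases before to 50 bases after the start of the gene, written along the gene's strand, which is minus for all 4. Capitals mark matches on either strand to the GC box GGGCGG or to the CCAAT box CCAAT.
Fh1 (chr1:175625586-175625885): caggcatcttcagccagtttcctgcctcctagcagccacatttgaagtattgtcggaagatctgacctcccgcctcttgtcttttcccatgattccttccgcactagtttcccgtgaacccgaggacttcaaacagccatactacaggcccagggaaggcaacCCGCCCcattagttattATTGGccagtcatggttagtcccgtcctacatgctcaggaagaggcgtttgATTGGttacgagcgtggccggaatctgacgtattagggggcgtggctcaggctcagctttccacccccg
Pdhb (chr14:8172943-8173242): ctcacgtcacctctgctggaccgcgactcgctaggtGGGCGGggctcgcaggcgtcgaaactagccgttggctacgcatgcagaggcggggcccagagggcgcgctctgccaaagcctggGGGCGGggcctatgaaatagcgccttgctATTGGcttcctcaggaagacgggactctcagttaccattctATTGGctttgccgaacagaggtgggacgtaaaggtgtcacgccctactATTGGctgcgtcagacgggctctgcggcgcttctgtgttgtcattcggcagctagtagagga
Cpt1c (chr7:44974802-44975101): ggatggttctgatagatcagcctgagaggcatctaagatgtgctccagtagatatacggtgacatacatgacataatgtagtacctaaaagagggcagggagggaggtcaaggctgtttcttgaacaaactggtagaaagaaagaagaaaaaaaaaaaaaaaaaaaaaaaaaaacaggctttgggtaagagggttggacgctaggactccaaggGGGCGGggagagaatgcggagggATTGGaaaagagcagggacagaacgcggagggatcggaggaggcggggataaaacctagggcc
Hadha (chr5:30154931-30155230): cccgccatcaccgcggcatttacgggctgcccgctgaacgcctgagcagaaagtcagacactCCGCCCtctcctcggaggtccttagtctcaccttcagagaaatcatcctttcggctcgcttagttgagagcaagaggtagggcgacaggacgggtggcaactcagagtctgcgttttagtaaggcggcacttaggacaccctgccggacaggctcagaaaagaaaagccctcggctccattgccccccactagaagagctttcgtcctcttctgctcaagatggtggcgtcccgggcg

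A window was found for 36 of the 39 members, and 27025 windows of all genes served for comparison. A member was given the window nearest its annotated gene start. For the comparison each gene gave its window of lowest coordinate, whether or not the gene was expressed in these cells. The GC box GGGCGG was present on either strand in 28 of the 36 member windows (77.8%), against 35.6% of all windows. The CCAAT box was present in 19 (52.8%), against 37.8%, and in 4 of the 6 pyruvate entry windows. The median GC content of the member windows was 61.3%, against 52.7% for all windows, so the members' windows were richer in the bases that make up a GC box. The hexamer AGGTCA, which nuclear receptors bind, was in 8 of the 36 windows (22.2%), against 16.2% of all. It overlaps the longer element TCAAGGTCA, known as the site of the estrogen-related receptors, which was in 0 of the 36 windows and in 0.407% of all. The cAMP response element TGACGTCA was in the windows of Mdh2 and Ogdh (5.56%), against 1.78% of all, and the E-box CACGTG in that of Pcx (2.78%), against 7.09% of all. The site CCGGAAG of GABP and other ETS factors was in 6 windows (16.7%), against 9.08%, and the palindromic NRF1 site in that of Etfdh (2.78%), against 0.962%. These are matches of letters and nothing was measured at them.

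The libraries held 58871554 to 69530032 counts, and levels are given as CPM (library counts brought to a common total), scaled with TMM, a correction for library composition. Etfb rested on 20 to 66 counts in a library, Decr1 on 340 to 1167 and Mpc1 on 686 to 951, the 3 lowest totals among the members. The 39 members took 0.345% and 0.356% of the counts of clone 1, 0.416% and 0.421% of clone 2, and 0.383% and 0.382% of the parental libraries. The libraries of clone 1 differed most from each other, with a chi-square per gene of 24.8, against 5.33 between those of clone 2 and 3.78 between the parental ones. Clone 1 library 1 also had the highest share of counts from mitochondrial genes, 6.86%, against 5.37% to 5.73% in the other 5 libraries. Genes with at least 1 count numbered 30747 to 32686 in the labelled knockout libraries, and 37678 and 37419 in the parental ones. The part of these library differences in the results was not tested. The cells differed widely in other ways. The 6 proliferation markers summed to 1043 and 1019 CPM in clone 1, 663 and 664 CPM in clone 2, and 58.4 and 57.6 CPM in parental cells, and all 6 were called higher in the labelled knockout. The 10 astrocyte markers summed to 2139 and 2188 CPM in clone 1, 2999 and 3045 CPM in clone 2, and 9341 and 9179 CPM in parental cells, with 6 called lower and 1 higher. The 10 neural progenitor markers summed to 3706 to 4366 CPM in the labelled knockout libraries and 4660 and 4642 CPM in the parental ones, with Nes, Sox2 and Pax6 at 49.3 CPM or more in every library. Of these 10, 4 were called higher, among them Nes, Fabp7 and Hes5, and 3 lower, Msi1, Sox1 and Slc1a3. Their log2 differences ran from -4.18 for Sox1 to 1.91 for Fabp7. The 8 neuron markers summed to 1041 to 1506 CPM in the labelled knockout libraries and 1067 and 1075 CPM in the parental ones, and 4 were called lower, among them Tubb3 and Dcx. Oligodendrocyte lineage markers summed to 4910 to 6022 CPM in the labelled knockout libraries and 1368 and 1370 CPM in the parental ones, most of it from Olig1 and Olig2. Of the 7 tested, those 2 were called higher (2.54 and 2.10 on the log2 scale) and Mbp, Mog and Cnp lower, with a median of -0.54 and a lowest value of -3.36 for Mog. The 8 microglia markers reached at most 2.09 CPM and the 6 endothelial markers at most 4.44 CPM in any library. The 6 fibroblast markers summed to 32.4 to 60.3 CPM in the labelled knockout libraries and 59.0 and 59.2 CPM in the parental ones. In bulk RNA, fewer cells of a type and less RNA per cell cannot be told apart, and the part of these marker differences in the results on the 39 genes was not tested.

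The main question of the design is how labelled knockout cells differ from parental cells. For this comparison, counts were summed within a clone, and 2 clones stood against 2 parental libraries, and genes were called at a Benjamini-Hochberg adjusted p under 0.05 by edgeR's quasi-likelihood test over 24506 genes. Of the 39 members, 6 were higher, 4 were lower and 29 were not called. That is 25.6% of the members, against 26.7% of all genes tested in this comparison. In a separate fit restricted to genes that averaged 5 CPM or more, as 38 members did and Etfb did not, 6 members were higher and 4 lower, which is 26.3% of the 38, against 34.4% of the genes in that fit. Calls are given by role, and the difference between roles was not tested. Of the 14 TCA genes, 3 were higher and 0 lower. Of the 6 pyruvate entry genes, 2 were higher and 0 lower. Of the 19 fatty acid oxidation genes, 1 was higher and 4 were lower. In the background, 13% of all genes tested were called higher and 13.6% lower, and in the fit of genes averaging 5 CPM or more 17.6% and 16.8%. The median log2 fold change was 0.27 for the TCA genes, 0.25 for pyruvate entry and -0.07 for fatty acid oxidation, against 0.03 over all genes tested. Over all members it was 0.10. In the fit of genes averaging 5 CPM or more it was -0.0002 for the members, against 0.02 over the genes of that fit. Without parental library 1 or 2, 1 library was left in that group, and calls became fewer over all genes as well as among the members. Decr1 kept its call, and the other 9 calls rest on both parental libraries. The log2 differences of those 9 members then lay between 0.40 and 0.78 for the higher genes and between -1.59 and -0.31 for the lower ones.

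**Figure D1:**
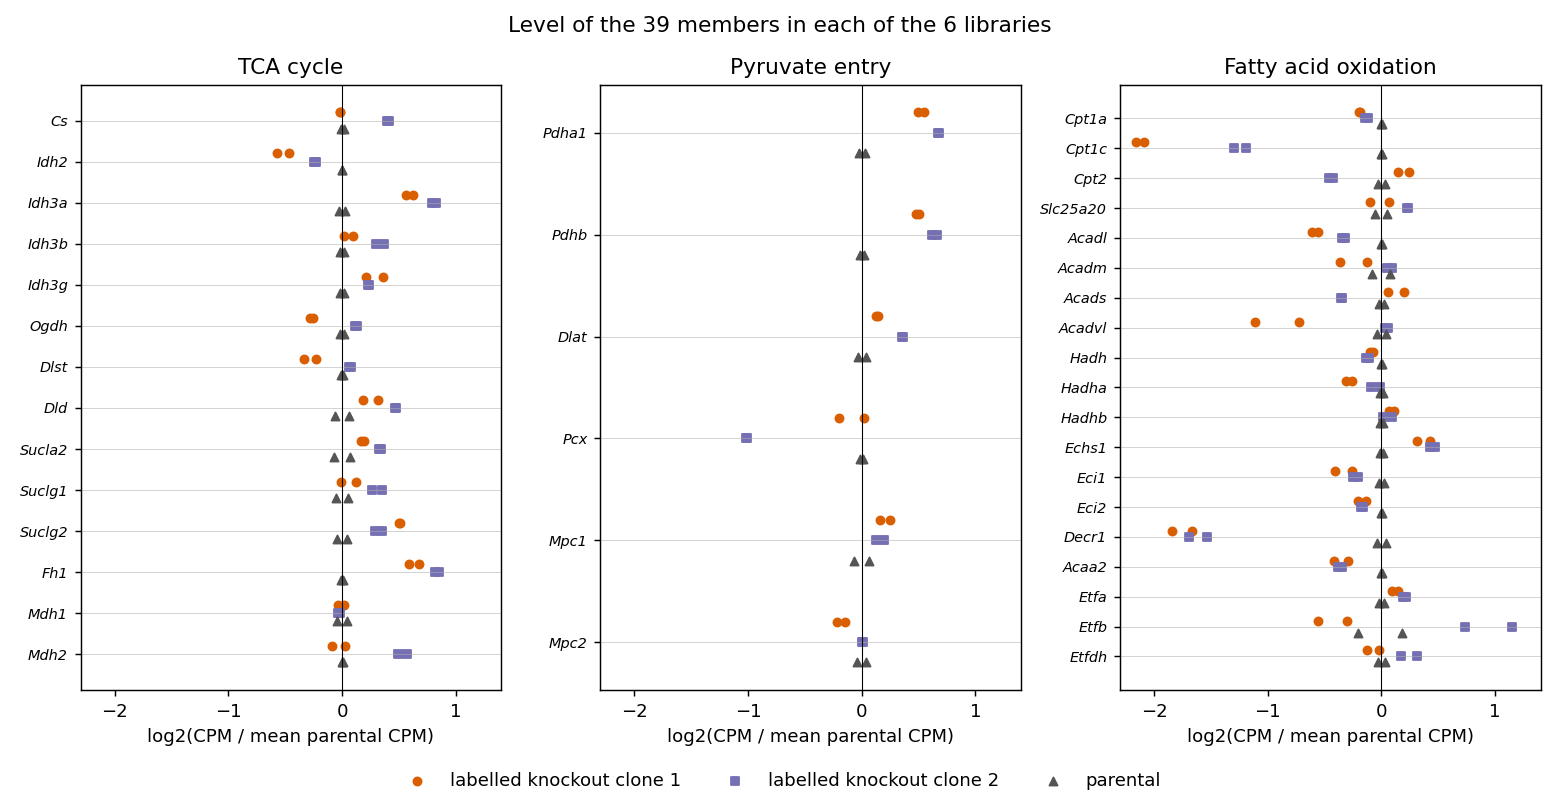
Level of each of the 39 members in each library, as log2 of its CPM over the mean CPM of the parental libraries, in 3 panels by role, with points for clone 1 (circles), clone 2 (squares) and parental cells (triangles). Fh1, Idh3a, Pdha1 and Pdhb lie right of the parental points in both clones, Decr1 and Cpt1c lie far to the left, and most other members lie within 1 log2 unit of the parental level.

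Among the TCA genes, fumarase and the catalytic subunit of NAD-dependent isocitrate dehydrogenase showed the largest differences. Fh1, fumarase, which hydrates fumarate to malate, had 55.9 and 59.4 CPM in clone 1, 65.5 and 67.0 CPM in clone 2, and 37.4 and 37.0 CPM in parental cells. Every labelled knockout library was above both parental ones. The difference was 1.70-fold, or 0.77 ± 0.11 (log2, SE), with an edgeR adjusted p of 0.00704. Idh3a, the catalytic subunit of the enzyme that makes oxoglutarate with NAD, had 97.5 and 101.9 CPM in clone 1, 117 and 114 CPM in clone 2, and 67.1 and 64.9 CPM in parental cells. The groups again did not overlap, and Idh3a was 1.67-fold higher in the labelled knockout (0.74 ± 0.11, edgeR adjusted p = 0.00811).

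Suclg2, the beta subunit of the succinyl-CoA ligase that forms GTP, had 53.4 and 53.4 CPM in clone 1, 47.9 and 46.1 CPM in clone 2, and 38.7 and 36.5 CPM in parental cells. It was the only TCA gene called higher in which clone 1 stood above clone 2. The difference from parental cells was 0.45 ± 0.10 (log2, SE; edgeR adjusted p = 0.0317), and its call was lost under upper quartile scaling (adjusted p = 0.0511) and without clone 1 library 2 (0.0574) or clone 2 library 1 (0.0502). Its counterpart Sucla2, whose ligase forms ATP, had a difference of 0.29 ± 0.12 that was not called (edgeR adjusted p = 0.129), although its 4 labelled knockout libraries were above both parental ones. The groups did not overlap for 7 of the 14 TCA genes, 6 with the labelled knockout above and 1 below. Over all genes tested, 27% had all 4 labelled knockout libraries above both parental ones and 29.6% had all 4 below.

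Idh2, the mitochondrial isocitrate dehydrogenase that makes NADPH, was the TCA gene whose labelled knockout libraries were all below. It had 115.0 and 124 CPM in clone 1, 144 and 146 CPM in clone 2, and 172 and 171 CPM in parental cells. With the clones as units this was not called (-0.34 ± 0.12, edgeR adjusted p = 0.101). Mdh1, the cytosolic malate dehydrogenase, was the flattest member, with 111 and 115 CPM in clone 1, 111 and 112 CPM in clone 2, and 111 and 117 CPM in parental cells. None of the 4 comparisons called Mdh1, and its labelled knockout libraries lay within the parental range.

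Pyruvate entry held the same pattern of a few higher genes and no lower ones. Pdha1, the catalytic alpha subunit of pyruvate dehydrogenase, had 147 and 153 CPM in clone 1, 167 and 167 CPM in clone 2, and 107 and 103 CPM in parental cells. Pdhb, the beta subunit of that enzyme, had 55.9 and 54.9 CPM in clone 1, 60.7 and 62.3 CPM in clone 2, and 39.1 and 39.9 CPM in parental cells. Both subunits were above the parental libraries in every labelled knockout library, by 0.63 ± 0.098 for Pdha1 (log2, SE; edgeR adjusted p = 0.00905) and by 0.60 ± 0.10 for Pdhb (edgeR adjusted p = 0.0119). Per kilobase of exon, Pdha1 stood 2.66 to 2.89 times as high as Pdhb in all 6 libraries, so their balance hardly moved. A pseudogene of Pdhb, Gm6123, is 97.0% identical to it over 1079 bases and held 13.0% as many counts, and adding them left this call against parental cells in place. Dlat, the acetyl-transferring subunit of the complex, had 58.1 and 57.6 CPM in clone 1, 67.5 and 68.0 CPM in clone 2, and 54.0 and 51.5 CPM in parental cells. Its 4 labelled knockout libraries were above both parental ones, but the difference was not called (0.28 ± 0.12, edgeR adjusted p = 0.132).

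The mitochondrial pyruvate carrier is a pair of proteins, Mpc1 and Mpc2. Mpc1 had 14.5 and 13.7 CPM in clone 1, 14.0 and 13.3 CPM in clone 2, and 12.8 and 11.6 CPM in parental cells. The difference was not called (0.22 ± 0.13, edgeR adjusted p = 0.259). A pseudogene, Mpc1-ps, is 99.7% identical to Mpc1 over 330 bases and held 70.4% as many counts as Mpc1, so reads may be split between them. Mpc2 had 31.3 and 32.8 CPM in clone 1, 36.3 and 36.7 CPM in clone 2, and 35.4 and 37.3 CPM in parental cells. It overlapped between groups and was not called (-0.05 ± 0.11, edgeR adjusted p = 0.773).

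Pcx, pyruvate carboxylase, which makes oxaloacetate and is known as an astrocyte-enriched enzyme in brain, split the clones. It had 33.6 and 39.1 CPM in clone 1, 19.2 and 19.0 CPM in clone 2, and 38.3 and 38.9 CPM in parental cells. Only clone 2 was apart from parental cells, by -1.01 ± 0.072 on the log2 scale (edgeR adjusted p = 3.16e-09), and the comparison of both clones with parental cells made no call (-0.45 ± 0.30, edgeR adjusted p = 0.327).

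**Figure D2:**
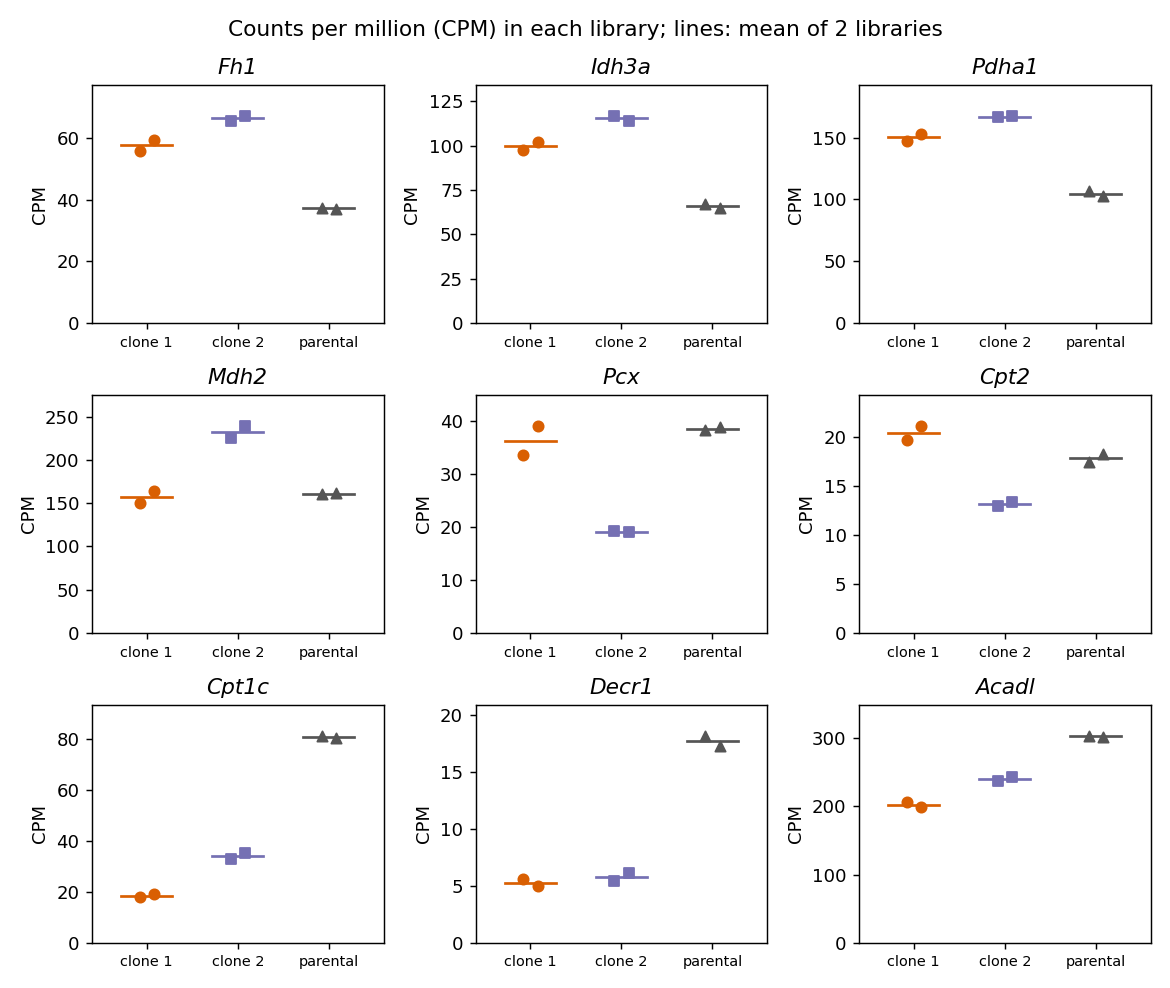
CPM of 9 members in each library, with zero-based axes, points for libraries and a line at the mean of the 2 libraries of each group; clone 1 and clone 2 are the labelled knockout clones. Fh1, Idh3a and Pdha1 are higher in both clones than in parental cells, Mdh2 is higher in clone 2, Pcx and Cpt2 are lower in clone 2, and Cpt1c, Decr1 and Acadl are lower in both clones.

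Fatty acid oxidation was where the largest differences from parental cells lay, and both were decreases. Decr1, mitochondrial dienoyl-CoA reductase, needed to oxidise polyunsaturated fatty acids, had 5.58 and 4.95 CPM in clone 1, 5.47 and 6.12 CPM in clone 2, and 18.2 and 17.2 CPM in parental cells. All 4 labelled knockout libraries were far below the parental ones and close to each other. The difference was 3.14-fold (-1.65 ± 0.14, edgeR adjusted p = 0.00122), and Decr1 was the member whose call held under each of the 14 alternative settings tried, with a highest adjusted p of 0.0104. Cpt1c, the brain isoform of carnitine palmitoyltransferase, which sits in the endoplasmic reticulum and has little known transferase activity, had 18.1 and 19.0 CPM in clone 1, 33.0 and 35.4 CPM in clone 2, and 81.3 and 80.5 CPM in parental cells. Its difference was the second largest among the members (-1.58 ± 0.30, edgeR adjusted p = 0.0195), with clone 1 below clone 2 and both below parental cells.

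Acadl, the long-chain acyl-CoA dehydrogenase, was the most abundant member per kilobase of exon, at 101 RPKM (CPM per kilobase) in clone 1, 120 RPKM in clone 2 and 151 RPKM in parental cells. In CPM it had 206 and 199 in clone 1, 238 and 242 in clone 2, and 303 and 302 in parental cells. It was lower in both clones, by 0.42 ± 0.11 on the log2 scale and just inside the threshold (edgeR adjusted p = 0.0492). Acaa2, a mitochondrial ketoacyl-CoA thiolase of the last step of beta-oxidation, had 40.3 and 43.8 CPM in clone 1, 42.4 and 41.3 CPM in clone 2, and 53.9 and 53.5 CPM in parental cells. The decrease was 0.32 ± 0.086 (log2, SE; edgeR adjusted p = 0.0448). With no filter on low counts, Acadl (adjusted p = 0.0927), Acaa2 (0.177) and Cpt1c (0.0537) were not called, and Acadl was not called without clone 1 library 2 (0.0519) or clone 2 library 1 (0.0587).

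Echs1, short-chain enoyl-CoA hydratase, also used to break down branched amino acids, went the other way. It had 56.2 and 61.2 CPM in clone 1, 62.9 and 60.9 CPM in clone 2, and 45.0 and 45.7 CPM in parental cells. It was 1.36-fold higher in the labelled knockout (0.44 ± 0.090, edgeR adjusted p = 0.0208), with all 4 libraries of the clones above both parental ones. Without clone 1 library 2 the adjusted p was 0.054.

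Cpt1a, the outer-membrane carnitine palmitoyltransferase that controls entry of long-chain fatty acids, had 259 and 260 CPM in clone 1, 267 and 274 CPM in clone 2, and 297 and 295 CPM in parental cells. Every labelled knockout library was lower, but by only -0.13 ± 0.085 (log2, SE; edgeR adjusted p = 0.321). Cpt2, its partner on the inner membrane, had 19.8 and 21.2 CPM in clone 1, 13.0 and 13.4 CPM in clone 2, and 17.5 and 18.3 CPM in parental cells. The clones lay on opposite sides of parental cells, and the joint comparison made no call (-0.06 ± 0.22, edgeR adjusted p = 0.871). Over all genes tested, 29.6% had all 4 labelled knockout libraries below both parental ones and 27% had all 4 above. Among the 19 fatty acid oxidation genes, the groups did not overlap for 11, 9 with the labelled knockout below and 2 above. The remaining ones below were Cpt1a, Hadh, Hadha, Eci1 and Eci2, with log2 differences from -0.25 to -0.07, none of them called. Hadha and Hadhb, the subunits of the trifunctional protein, share most of a promoter region, their windows overlapping by 228 bases. Hadha had 209 and 217 CPM in clone 1, 243 and 257 CPM in clone 2, and 257 and 261 CPM in parental cells, and Hadhb had 97.3 and 100.5 CPM in clone 1, 98.9 and 93.8 CPM in clone 2, and 92.1 and 93.8 CPM in parental cells. Hadhb overlapped between the groups where Hadha did not. Pseudogenes of Hadhb, 2 in number, held 12.6% as many counts as Hadhb, with the longest match 99.8% identical over 1428 bases. Reads may thus be split between Hadhb and these copies.

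Each clone was also set against the parental libraries, in a fit of the 6 libraries in 3 groups that counts the libraries of a clone as replicates. These 2 comparisons share their parental libraries, so their values stand side by side and their likeness is no result. In clone 1, 13 members were higher and 14 lower, 69.2% against 54.5% of all genes tested (27.3% higher, 27.2% lower). In the fit restricted to genes averaging 5 CPM or more, 8 of 38 members were higher and 15 lower in clone 1, 60.5% against 72.8% of the genes in that fit (36.2% higher, 36.5% lower). In clone 2, 19 were higher and 12 lower, 79.5% against 53.5% of all genes tested (26.7% higher, 26.8% lower). In the restricted fit 18 of 38 were higher and 12 lower in clone 2, 78.9% against 71.2% (37.3% higher, 33.9% lower). The TCA genes gave 6 higher and 3 lower in clone 1, and 11 higher and 1 lower in clone 2. Pyruvate entry gave 4 higher and 1 lower in clone 1, and 3 higher and 1 lower in clone 2. Fatty acid oxidation gave 3 higher and 10 lower in clone 1, and 5 higher and 10 lower in clone 2. Ogdh, the dehydrogenase of the oxoglutarate complex, was lower in clone 1 (-0.27 ± 0.041, edgeR adjusted p = 2.94e-05) and higher in clone 2 (0.12 ± 0.041, edgeR adjusted p = 0.0224). Cpt2 was higher in clone 1 (0.19 ± 0.073, edgeR adjusted p = 0.0339) and lower in clone 2 (-0.44 ± 0.075, edgeR adjusted p = 0.000101). Ogdh and Cpt2 were the only members called in opposite directions in the clones. These were small differences: the call of Ogdh in clone 2 was lost with DESeq2 (adjusted p = 0.104) and without parental library 1 (0.166) or 2 (0.068), and that of Cpt2 in clone 1 was lost with DESeq2 (0.109), without parental library 1 (0.246) or 2 (0.104) and without clone 1 library 2 (0.111).

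The clones differed directly, and mostly in 1 direction. Of the 39 members, 22 were higher in clone 2 than in clone 1, 4 were lower and 13 were not called by edgeR. The share called was 66.7%, against 36.4% of all genes tested. The share higher was 56.4%, against 16.1% of all genes tested, and the share lower was 10.3%, against 20.3%. In the fit restricted to genes averaging 5 CPM or more, 24 of 38 members were higher and 4 lower, so that 73.7% were called, against 60.1% of the genes in that fit. There the share higher was 63.2%, against 30.3%, and the share lower 10.5%, against 29.8%. The median log2 difference of the members was 0.19, while the median over all genes was -0.01 and the middle 50% of genes ran from -0.30 to 0.29. By role, 10 of 14 TCA genes were higher and 1 lower, 4 of 6 pyruvate entry genes were higher and 1 lower, and 8 of 19 fatty acid oxidation genes were higher and 2 lower. Summed over the 14 TCA genes, clone 2 had 2197 and 2222 CPM, clone 1 had 1779 and 1812 CPM, and parental cells had 1798 and 1811 CPM. Clone 1 thus matched the parental sum, although 6 of these genes were called higher and 3 lower in clone 1 than in parental cells. The summed fatty acid oxidation genes had 1546 and 1573 CPM in clone 2, 1405 and 1447 CPM in clone 1, and 1727 and 1721 CPM in parental cells. Of the proliferation markers, 5 of 6 were lower in clone 2, as the sums above show, and of the astrocyte markers 6 of 10 were higher and 1 lower. Their part in the clone difference was not tested.

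**Figure D3:**
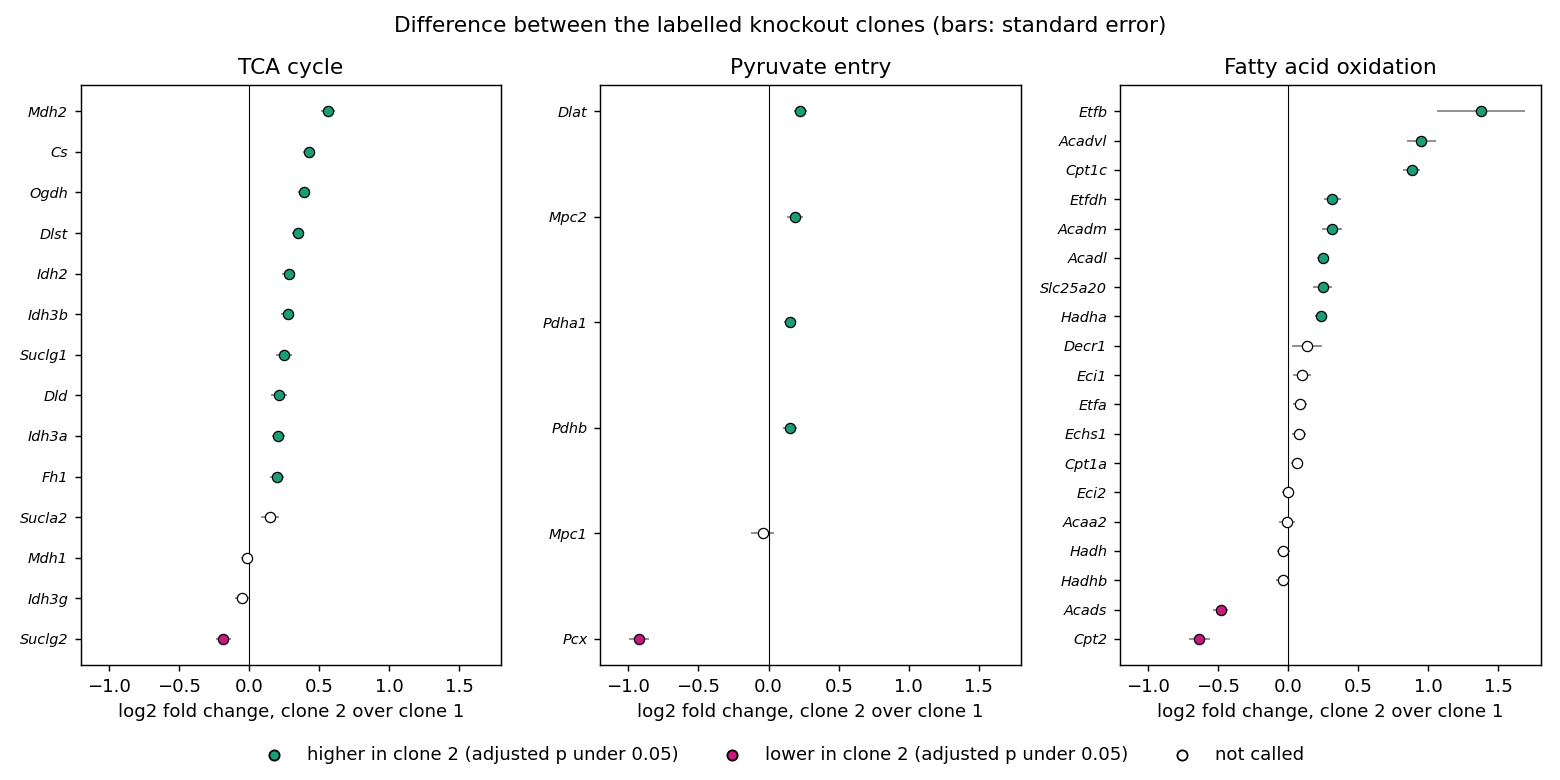
Log2 fold change of clone 2 over clone 1 for each member, sorted within the 3 roles, with bars for the standard error and the colour for the edgeR call at an adjusted p under 0.05. Most TCA points lie right of 0, with Mdh2 at 0.56 and Suclg2 at -0.18 at the ends, and the widest spread is among the fatty acid oxidation genes, from Cpt2 at -0.64 to Etfb at 1.38.

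Mdh2, the mitochondrial malate dehydrogenase, had 226 and 239 CPM in clone 2, 151 and 164 CPM in clone 1, and 160 and 161 CPM in parental cells. Cs, citrate synthase, which joins acetyl-CoA to oxaloacetate, had 681 and 687 CPM in clone 2, 509 and 509 CPM in clone 1, and 512 and 521 CPM in parental cells. For both genes clone 1 lay near the parental level and clone 2 stood above it. The clone difference was 0.56 ± 0.048 for Mdh2 (log2, SE; edgeR adjusted p = 1.65e-07) and 0.43 ± 0.039 for Cs (edgeR adjusted p = 3.5e-07). Ogdh had 236 and 233 CPM in clone 2, 181 and 177 CPM in clone 1, and 213 and 219 CPM in parental cells, a clone difference of 0.39 ± 0.041 (edgeR adjusted p = 1.72e-06). Suclg2 was the only TCA gene lower in clone 2 (-0.18 ± 0.053, edgeR adjusted p = 0.0118), a call lost without clone 2 library 1 (0.069) or 2 (0.207).

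Pyruvate entry split within its own group. Dlat was higher in clone 2 by 0.23 ± 0.048 (log2, SE; edgeR adjusted p = 0.00133), Mpc2 by 0.19 ± 0.058 (adjusted p = 0.0184) and Pdha1 by 0.15 ± 0.043 (adjusted p = 0.0112). Pdhb was also called higher in clone 2, by 0.15, but not with DESeq2 (adjusted p = 0.0762), without clone 2 library 2 (0.126) or with the counts of its pseudogene added (0.0717). The call of Mpc2 was lost with DESeq2 (adjusted p = 0.0507) and without clone 2 library 1 (log2 difference 0.22) or 2 (0.20). That of Pdha1 was lost without clone 2 library 2 (0.17). Pcx was 1.90-fold lower in clone 2 (-0.93 ± 0.072, edgeR adjusted p = 4.94e-08), with no overlap of its libraries with those of clone 1 or the parental cells.

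In fatty acid oxidation, Acadvl, the very-long-chain acyl-CoA dehydrogenase, had 42.3 and 43.1 CPM in clone 2, 19.1 and 25.1 CPM in clone 1, and 42.6 and 40.3 CPM in parental cells. Clone 1 was the group apart, and clone 2 exceeded it by 0.95 ± 0.10 (log2, SE; edgeR adjusted p = 5.05e-05). Exons of Dvl2 on the opposite strand cover 42.9% of its exon bases, and Dvl2 had 51.4 and 51.4 CPM in clone 2, 53.1 and 53.8 CPM in clone 1, and 42.4 and 43.2 CPM in parental cells. The difference of Dvl2 between the clones was not called by edgeR (-0.06 ± 0.049, adjusted p = 0.412). Cpt1c was 0.88 ± 0.058 higher in clone 2 (edgeR adjusted p = 7.38e-09). Cpt2 was lower in clone 2 by 0.64 ± 0.074 (edgeR adjusted p = 5.31e-06). Acads, the short-chain acyl-CoA dehydrogenase, had 41.9 and 42.3 CPM in clone 2, 55.9 and 61.6 CPM in clone 1, and 53.1 and 54.5 CPM in parental cells. It was lower in clone 2 by 0.48 ± 0.055 (log2, SE; edgeR adjusted p = 4.15e-06), the opposite order to Acadvl.

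Etfb encodes the beta subunit of the electron transfer flavoprotein, which takes electrons from the acyl-CoA dehydrogenases. It had 0.996 and 0.746 CPM in clone 2, 0.305 and 0.364 CPM in clone 1, and 0.390 and 0.509 CPM in parental cells, and its 212 counts over the 6 libraries made it the least abundant member. The clone difference was 1.38 ± 0.31 (log2, SE; edgeR adjusted p = 0.00252). Its partner in the flavoprotein, Etfa, had 37.5 RPKM in clone 2, 35.4 RPKM in clone 1 and 32.6 RPKM in parental cells, against 0.749, 0.288 and 0.386 RPKM of Etfb in the same groups. A gene model on the same strand, Gm45233, covers 58.2% of the exon bases of Etfb and held 3 counts, so reads in the shared part may have gone to neither, and the level of Etfb is uncertain.

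Genes around the 39 members were examined in 8 lists, chosen by function. The counts of calls in these lists stand against 13% higher and 13.6% lower over all genes tested. In the fit of genes averaging 5 CPM or more these shares were 17.6% and 16.8%. Differences between the lists, or from these shares, were not tested. The 9 other TCA enzymes had 1 gene higher and 0 lower in the labelled knockout. That gene was Sdhd, a membrane anchor of succinate dehydrogenase (0.37 ± 0.092, edgeR adjusted p = 0.0381). The call of Sdhd was lost under upper quartile scaling, in the restricted fit and without clone 1 library 2. The flavoprotein Sdha was not called. Among 11 genes of pyruvate dehydrogenase regulation and lipoylation, 3 were higher and 2 lower. Pdk1, a kinase that switches the enzyme off, had 59.7 and 61.9 CPM in clone 1, 109 and 108 CPM in clone 2, and 26.1 and 27.2 CPM in parental cells (1.70 ± 0.29, edgeR adjusted p = 0.0137). The kinase Pdk3 was higher by 1.59 ± 0.14 (edgeR adjusted p = 0.00133). The phosphatases that switch pyruvate dehydrogenase on parted, Pdp2 being higher by 0.79 ± 0.15 (edgeR adjusted p = 0.0159) and Pdp1 lower (-0.92 ± 0.093, edgeR adjusted p = 0.00225). Pdk4, a kinase known to rise in fasting, was called lower but stood at 0.390 CPM or less in every library.

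Of 12 genes of anaplerosis and citrate export, 3 were higher and 0 lower. Got1, the cytosolic aspartate aminotransferase, had 26.5 and 23.7 CPM in clone 1, 28.7 and 28.8 CPM in clone 2, and 9.82 and 9.13 CPM in parental cells (1.54 ± 0.13, edgeR adjusted p = 0.00139). Its mitochondrial counterpart Got2 was higher by 0.66 ± 0.081 (edgeR adjusted p = 0.00435), and Pck2, the mitochondrial phosphoenolpyruvate carboxykinase, by 1.54 ± 0.18 (edgeR adjusted p = 0.00384). The citrate carrier Slc25a1 and the citrate lyase Acly were not called.

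Fatty acid activation and carnitine handling, 14 genes, had 1 higher and 5 lower. Acsl1, an acyl-CoA synthetase that feeds oxidation in many tissues, had 4.82 and 3.56 CPM in clone 1, 3.37 and 3.13 CPM in clone 2, and 14.8 and 14.4 CPM in parental cells (-1.94 ± 0.17, edgeR adjusted p = 0.00148). Acsl6, the synthetase of the brain, was lower (-1.17 ± 0.27, edgeR adjusted p = 0.0295), as was the acyl-CoA binding protein Dbi (-1.32 ± 0.19, edgeR adjusted p = 0.00794). Acsl4, which prefers polyunsaturated acids, was higher by 0.74 ± 0.14 (edgeR adjusted p = 0.0178). Peroxisomal beta-oxidation, 12 genes, had 1 higher and 4 lower. The thiolase Scp2 was among those lower (-0.56 ± 0.094, edgeR adjusted p = 0.0121). The reductase Pecr, at 1.48 to 3.43 CPM in the 6 libraries, was higher by 0.87 ± 0.22 (edgeR adjusted p = 0.0416). Its call was lost under upper quartile scaling and without clone 1 library 2. Among 11 other acyl-CoA dehydrogenases and beta-oxidation genes, 4 were higher and 0 lower. The 3 with the largest differences were Ivd and Acad8, which break down branched amino acids, at 0.98 ± 0.090 (edgeR adjusted p = 0.00167) and 0.79 ± 0.16 (adjusted p = 0.0201), and Acad11 at 0.48 ± 0.11 (adjusted p = 0.0278).

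Ketone body metabolism, 5 genes, had 2 higher and 2 lower. Oxct1, which activates acetoacetate for oxidation, had 157 and 163 CPM in clone 1, 145 and 145 CPM in clone 2, and 64.3 and 67.1 CPM in parental cells (1.25 ± 0.091, edgeR adjusted p = 0.000863). Acat1, the mitochondrial thiolase after it, was higher by 0.81 ± 0.10 (edgeR adjusted p = 0.00465). Bdh1, hydroxybutyrate dehydrogenase, had 0.0763 and 0.189 CPM in clone 1, 0.151 and 0.0487 CPM in clone 2, and 4.05 and 3.56 CPM in parental cells (-4.96 ± 0.26, edgeR adjusted p = 0.000387).

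Of 12 transcription regulators of oxidation, 11 were tested, with 4 higher and 2 lower. Ppargc1a, a coactivator known to drive mitochondrial genes, had 125 and 114 CPM in clone 1, 128 and 124 CPM in clone 2, and 47.2 and 49.1 CPM in parental cells (1.38 ± 0.090, edgeR adjusted p = 0.000624). The receptors Ppara and Esrrb were higher by 1.10 ± 0.16 (edgeR adjusted p = 0.00821) and 2.16 ± 0.25 (adjusted p = 0.00377), with Esrrb at 2.73 CPM or less in every library, and Esrra, related to Esrrb, by 0.92 ± 0.17 (adjusted p = 0.0173). Rxra, the partner of Ppara, was lower (-1.06 ± 0.084, edgeR adjusted p = 0.00109), as was the coactivator Pprc1 (-0.50 ± 0.087, edgeR adjusted p = 0.0132). Of the related genes named, Acsl1, Dbi, Ivd, Oxct1, Bdh1, Got1, Pck2, Pdk3, Pdp1, Ppargc1a, Esrrb and Rxra were still called without either parental library. The others were not, in fits where calls were fewer over all genes tested.

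**Figure D4:**
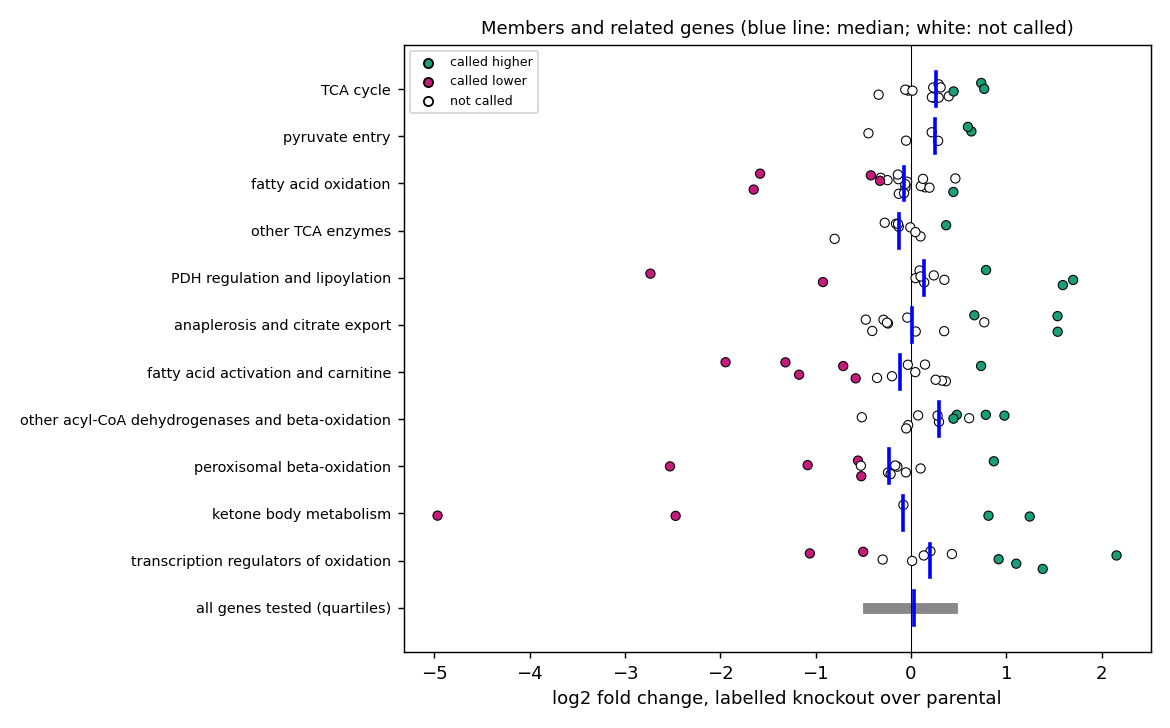
Log2 fold change of labelled knockout over parental cells for the 3 roles of the members and for 8 lists of related genes, with 1 point a gene, coloured by the edgeR call, and a blue line at each median; the bar at the bottom spans the quartiles of all genes tested. The members lie mostly between -0.5 and 0.8, while single genes of the related lists reach from -4.96 (Bdh1) to 2.16 (Esrrb).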

How the data were processed

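RNA of 6 libraries was sequenced. Per the labels' protocols, total RNA was column-purified and libraries were made with a SMART-Seq or a TruSeq kit. The kit of each library was not given in the sources used here. If the kit differed between the groups, it cannot be told apart from the genotype. STAR, featureCounts and the builds mm10 and GRCm38.p6 are named in the submitters' processing notes. The deposited values were whole-number counts per gene, not normalized. Strand and multi-mapping settings were also not given, so reads of overlapping genes and near-identical copies cannot be told apart. Exon overlaps and lengths came from GENCODE vM21 on GRCm38, in which 41791 of 42365 IDs were found. Pseudogenes were matched with blastn at 90% identity or more over at least 300 bases. Some genes of the related lists are not reported here. The restricted fit repeats scaling and testing on genes with a mean CPM of 5 or more.

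Counts were analysed with edgeR 4.0.16 in R 4.3.3 (filterByExpr with a minimum count of 10, TMM, robust quasi-likelihood test, Benjamini-Hochberg adjustment over all genes tested, threshold 0.05). To compare labelled knockout with parental cells, counts were summed within a clone (2 clones, 2 parental libraries, 2 residual degrees of freedom). Contrasts of single clones came from 1 fit of 6 libraries in 3 groups (3 residual degrees of freedom). The SE is the size of the log2 fold change over the square root of F, and RPKM is CPM per kilobase of joined exons. Tests were run on simulated data in which both clones had the same change. A spread between clones was not simulated, so that run cannot check the test with clones as units for it. Precision rests on the spread between libraries, and reads are not independent molecules. Alternatives were DESeq2 1.42.0, other scalings and filters, single libraries as replicates, a replicate block, each library left out, and, added after seeing the data, pseudogene counts joined to their gene.

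The members and lists were chosen with earlier results of these data known. Values in every library are given for 6 genes of entry (Pcx, Mpc1, Mpc2, Cpt1a, Cpt1c, Cpt2), for up to 4 members per role and direction with the largest called difference from parental cells, and for up to 3 between the clones. From each related list, up to 3 called genes per direction with a mean of at least 1 CPM were named. Idh2, Mdh1, Sucla2, Hadha, Hadhb, Pdk4, Esrra, Sdha, Slc25a1 and Acly were named after their values were seen. Same-numbered libraries did not deviate together (correlations 0.0191, -0.0075 and -0.0152), so the numbers were not taken as pairs.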

Additional observations from a re-analysis of the deposited data

Results flagged for a closer look

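The clone contrast showed a difference between the effects of the labelled knockout clones for 17 of the members chosen by the naming rule, each by a test of clone 2 against clone 1 (edgeR adjusted p under 0.05). In the TCA cycle the log2 difference of clone 2 over clone 1 was 0.56 for Mdh2, 0.43 for Cs, 0.39 for Ogdh, 0.21 for Idh3a, 0.20 for Fh1 and -0.18 for Suclg2. In pyruvate entry it was 0.23 for Dlat, 0.19 for Mpc2, 0.15 for Pdha1, 0.15 for Pdhb and -0.93 for Pcx. In fatty acid oxidation it was 1.38 for Etfb, 0.95 for Acadvl, 0.88 for Cpt1c, 0.25 for Acadl, -0.48 for Acads and -0.64 for Cpt2. Of the members named after their values were seen, Idh2 (0.28) and Hadha (0.23) were also called higher in clone 2. Over all 39 members 26 were called (66.7%), against 36.4% of all genes tested. In the fit restricted to genes averaging 5 CPM or more the share was 73.7%, against 60.1%. The call of Pdhb was lost with DESeq2 (adjusted p = 0.0762), without clone 2 library 2 (log2 difference 0.15) and with pseudogene counts added (edgeR adjusted p = 0.0717). That of Mpc2 was lost with DESeq2 (adjusted p = 0.0507) and without clone 2 library 1 or 2. The call of Suclg2 was lost without clone 2 library 1 or 2, and that of Pdha1 without clone 2 library 2. No group held enough libraries for a test of single libraries that stand apart.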

How the results depend on the processing

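Labelled knockout against parental cells gave 6 members higher and 4 lower as reported. With no filter on low counts 1 was lower, and 16.1% of all genes were called, against 26.7% as reported. With single libraries as replicates 16 were higher and 13 lower, with 56.5% of all genes called. With a replicate block added these were 16 and 14, with 56.2% of all genes called. The replicate numbers do not pair the libraries, and the block moved no other count by over 1.5 times. Leaving out a library of a clone gave up to 7 higher and up to 4 lower, with 23.5% to 29.2% of all genes called. Without a parental library, 1 was left in that group, and calls were fewer among the members and over all genes. For clone 1 against parental cells, 13 members were higher as reported, 8 with upper quartile scaling, 8 with a mean of at least 5 CPM, 8 with the DESeq2 test, and 7 to 16 when each library was left out. The totals over the 39 members for clone 2 against parental cells and for clone 2 against clone 1 stayed within 1.5 times under every alternative run, but counts by role did not. In clone 2 against parental cells, 10 fatty acid oxidation genes were lower as reported and 6 without clone 2 library 1. In clone 2 against clone 1, 4 pyruvate entry genes were higher as reported, 2 with DESeq2 and 1 without clone 2 library 2, and 1 TCA gene was lower as reported, 2 without clone 1 library 2 and 0 without clone 2 library 1 or 2. In clone 1 against parental cells, pyruvate entry gave 2 to 4 higher and 0 to 2 lower, and fatty acid oxidation 1 to 5 higher, over the alternatives. In labelled knockout against parental cells, TCA genes higher numbered 5 with no filter, and fatty acid oxidation genes higher numbered 0 without clone 1 library 2. No called difference changed direction. Differences that were not called were followed across settings only if at least 0.2 in size (log2) or in the 6 genes of entry. For smaller ones in other members, changes of direction were not looked for. Among those followed, direction changed for Mpc2 (0.0437) and Cpt2 (0.0357) in labelled knockout against parental cells with no filter. Pcx in clone 1 changed direction when a library was left out (-0.1856 to 0.0388, above 0 without clone 1 library 1). Between the clones, Mpc1 did so when a library was left out (-0.0897 to 0.0176, above 0 without clone 1 library 1 or clone 2 library 2). Mpc2 in clone 2 changed direction with DESeq2 size factors (-0.0131), upper quartile scaling (-0.0068), a mean of at least 5 CPM (-0.0134) and the DESeq2 test (-0.0131). It did so too when a library was left out (-0.0211 to 0.0566, below 0 without parental library 1). With no filter the median of all genes moved by -0.14 in labelled knockout against parental cells, so the members' median there (0.20) is relative to a lower centre. The members' median was 0.10 as reported. It was 0.03 with upper quartile scaling, against -0.04 over all genes, and -0.0002 in the restricted fit, against 0.02. The causes were not tested. Depth limits Etfb alone among the members, at 20 to 66 counts a library.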

Other observations

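Ratios of paired members, from levels per kilobase of exon in each library, shifted where isoforms or partner enzymes moved apart. Cpt1c made up 8.73% and 9.05% of Cpt1a plus Cpt1c in clone 1, 14.4% and 15.0% in clone 2, and 27.2% and 27.1% in parental cells. Idh2, which makes NADPH, stood at 2.31 and 2.38 times the level of Idh3a in clone 1, 2.42 and 2.51 times in clone 2, and 5.01 and 5.16 times in parental cells. Both ratios were lower in all 4 labelled knockout libraries, and for Idh2 over Idh3a the clones lay close together.

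Pcx stood at 0.179 and 0.201 times the level of Pdha1 in clone 1, 0.0906 and 0.0893 times in clone 2, and 0.283 and 0.298 times in parental cells. Suclg2 over Sucla2 was 1.48 and 1.51 in clone 1, 1.21 and 1.17 in clone 2, and 1.18 and 1.22 in parental cells, with clone 1 apart. Mdh2 over Mdh1 was 1.46 and 1.54 in clone 2, 0.978 and 1.03 in clone 1, and 1.05 and 0.996 in parental cells, with clone 2 apart. Hadha over Hadhb was 1.62 and 1.63 in clone 1, 1.86 and 2.07 in clone 2, and 2.11 and 2.11 in parental cells, with reads of Hadhb possibly split with its pseudogenes. No test was run on these ratios.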
